A study of Mus musculus with 12 samples.

Results

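The 35 genes described here serve protein folding in the endoplasmic reticulum (ER). They were chosen by symbol as chaperones, translocation subunits and unfolded protein response genes, a rule that uses names and no measured value, although earlier results of these data were known when it was written. All 35 were found among the 30630 genes listed for each tumor, through the mouse Ensembl identifiers that the GENCODE M21 annotation pairs with their symbols. By role they were grouped as 13 folding genes, 6 sensors or their processing enzymes, 10 degradation genes and 6 translocation genes.

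RNA-Seq values were given for 12 subcutaneous CT-26 tumors: 6 tumors of the control group and 6 of the swimming group, out of 10 mice per group. CT-26 is a mouse colon carcinoma cell line. All mice were male BALB/c, aged 4 to 6 weeks when purchased, before grafting and training. All carried a graft of this line in the right flank, with no engineered allele named. The swimming group trained in water for 3 weeks, with 2 sessions daily of at most 30 min and 6 training days weekly, whereas the control group did not. The tumors were therefore transplants of a single cell line with blood vessels, connective tissue and immune cells of the host. In such bulk tissue, fewer cells of a type and less RNA per cell cannot be told apart.

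The deposited values are FPKM, read fragments divided by gene length and by the depth of the tumor, so levels of different genes are compared per length here. Read numbers were not part of the values, and the absolute depth is unknown. A relative depth was estimated from the most frequent FPKM ratio of weakly expressed genes between each tumor and control 1. By this estimate control 2 was at 0.694 of control 1 and the remaining 10 tumors at 0.872 to 0.971. Of the colon epithelium markers, Krt20 was at 99.8 to 194 FPKM and Krt18 at 5.89 to 14.8 FPKM in all 12 tumors. Krt8 was at 1.86 to 19.9 FPKM in 11 tumors and at 129 FPKM in control 4. Epcam did not pass 0.177 FPKM, Cdh1 0.43 FPKM and Vil1 0.0908 FPKM in any tumor. These epithelial markers were thus near 0, whereas Krt20 and Krt18 were not. The macrophage markers summed to 1389 to 1938 FPKM in the control group and 1433 to 1840.0 FPKM in the swimming group.

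Proteins bound for secretion or for a membrane enter the ER through the Sec61 channel, where chaperones fold them. Hspa5, also called BiP, binds unfolded chains and also the sensors Ern1 (IRE1), Eif2ak3 (PERK) and Atf6, which are released when unfolded chains accumulate. Ern1 then splices the Xbp1 transcript and Atf6 is cut by the proteases Mbtps1 and Mbtps2, and both routes raise chaperone and degradation genes. Eif2ak3 slows translation and raises the factor Atf4. The FPKM values pool all transcripts of a gene, so spliced and unspliced Xbp1 were not separated.

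Promoters of these genes are known for the ER stress response element (ERSE), to which Atf6 and Xbp1 bind. Promoter sequences from RefSeq on GRCm38.p6, from 250 bases before to 50 bases after the start of a gene, were given for 28 of the 35 genes. Not in that table were Atf6, Derl1, Hspa13, Hyou1, Manf, Sec61a1 and Ssr2. Both strands were searched for ERSE (CCAAT and CCACG with any 9 bases between them), for ERSE-II (ATTGG and CCACG with any 1 base between them) and for the Xbp1 element UPRE (TGACGTGG), which share the letters CCACG or, on the other strand, CGTGG. ERSE was found in 8 of the 28 genes (28.6%), namely Hspa5, Hsp90b1, Calr, Canx, Creld2, Dnajc3, Derl3 and Syvn1, against 0.137% of the 27025 genes in the table (0.119% of its 32851 promoters). ERSE-II was found in 2 genes (7.14%), Dnajb11 and Herpud1, against 0.0444% of all genes (0.0365% of promoters). UPRE was found in 0 of the 28 genes against 0.714% of all genes (0.676% of promoters). A match of letters describes the sequence and is no measurement of binding.

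Sites of 5 genes are shown because these genes recur in the results below: Hspa5 as the chaperone to which the others were related, Hsp90b1 as its abundant partner, Syvn1 and Herpud1 as degradation genes with either element, and Derl3 as the gene with the smallest p. Each is written 5′ to 3′ on the strand of its gene, with the element in capitals and with 20 bases on each side. For Hspa5 it is 5 bases, because a longer GENCODE transcript covers the site. Hspa5 (chr2:34772020-34772048, + strand) begins its element 65 bases before the start, the nearer Hsp90b1 element (chr10:86705513-86705571, - strand) 107 bases, the farther one (chr10:86705618-86705676, - strand) 212 bases, Syvn1 (chr19:6046512-6046570, + strand) 44 bases, Derl3 (chr10:75893222-75893280, + strand) 156 bases and Herpud1 (chr8:94386357-94386407, + strand) 52 bases before it.
Hspa5 ERSE: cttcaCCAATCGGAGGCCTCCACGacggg
Hsp90b1 ERSE, farther: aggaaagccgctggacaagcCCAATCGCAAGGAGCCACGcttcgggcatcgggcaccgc
Hsp90b1 ERSE, nearer: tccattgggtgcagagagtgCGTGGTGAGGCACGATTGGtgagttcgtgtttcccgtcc
Syvn1 ERSE: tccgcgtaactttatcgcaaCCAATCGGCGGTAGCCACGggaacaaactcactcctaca
Derl3 ERSE: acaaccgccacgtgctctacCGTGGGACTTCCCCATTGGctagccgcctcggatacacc
Herpud1 ERSE-II: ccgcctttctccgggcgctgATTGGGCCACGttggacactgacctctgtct
The elements of Derl3 and of the nearer Hsp90b1 site read on the opposite strand, and so did those of Calr and Creld2.

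The 35 genes were expressed over a wide range. Calr, a lectin chaperone that binds calcium, was highest with a mean of 325 FPKM over the 12 tumors, followed by Hsp90b1 (GRP94, the Hsp90 of the ER) at 291 FPKM, Hspa5 at 264 FPKM, Ssr3 of the translocon-associated protein complex at 134 FPKM and the membrane lectin Canx at 77.8 FPKM. These first 4 genes held 50.6% to 54% of the summed FPKM of all 35 in every tumor. Between 20 and 100 FPKM were 20 genes, between 1 and 20 FPKM were 10 genes, and 1 gene was below 1 FPKM. At the low end stood Derl3 at 0.154 FPKM, Mbtps2 at 4.73 FPKM, Eif2ak3 at 5.64 FPKM, Derl2 at 6.38 FPKM and the ubiquitin ligase Syvn1 at 9.48 FPKM. Neighbours in this order were often closer than their spread over tumors: Hsp90b1 ranged from 271 to 323 FPKM and Calr from 264 to 367 FPKM, while Ssr3 (119 to 143 FPKM) did not reach the lowest Hspa5 value of 196 FPKM.

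Among tumors the 34 genes above 1 FPKM varied by a median coefficient of variation of 9.37%, from 4.93% for Ssr1 to 19.3% for Dnajb9. The median over all 12789 tested genes above 1 FPKM was 12.3%. Those genes were not matched for level to the ER genes, whose means had a median of 25.5 FPKM. The medians therefore do not compare genes of equal level. Taken as a sum, the 35 genes held 0.493% ± 0.0286 (SD, n = 6) of all FPKM in the control group and 0.483% ± 0.0291 (SD, n = 6) in the swimming group. The ranges of 0.455% to 0.529% and 0.436% to 0.511% overlapped, and a two-sided exact permutation test gave p = 0.558.

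To ask whether swimming went along with a change of the ER folding genes, the groups were compared with limma on log2(FPKM + 1). A fold change on this scale understates the change of weakly expressed genes. Of the 35 genes, 1 was higher in the swimming group at an unadjusted p below 0.05, against 3.11% of the 19018 genes tested. None of them was lower at that p, against 2.46% of genes tested. At an adjusted p below 0.05 limma called 0 of the 35 genes and 0% of all genes, and the smallest adjusted p among the 35 was 0.889. Exact permutation tests of mean FPKM gave 1 of the 35 genes an unadjusted p below 0.05, against 5.24% of the genes tested. The groups overlapped for all 35 genes, and 0.147% of the genes tested had groups that did not overlap. A lower mean of log2(FPKM + 1) in the swimming group was found for 25 of the 35 genes and for 48.3% of all genes. The median log2 fold change was -0.05 for the 35 genes and 0.00 for all genes.

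**Figure D1:**
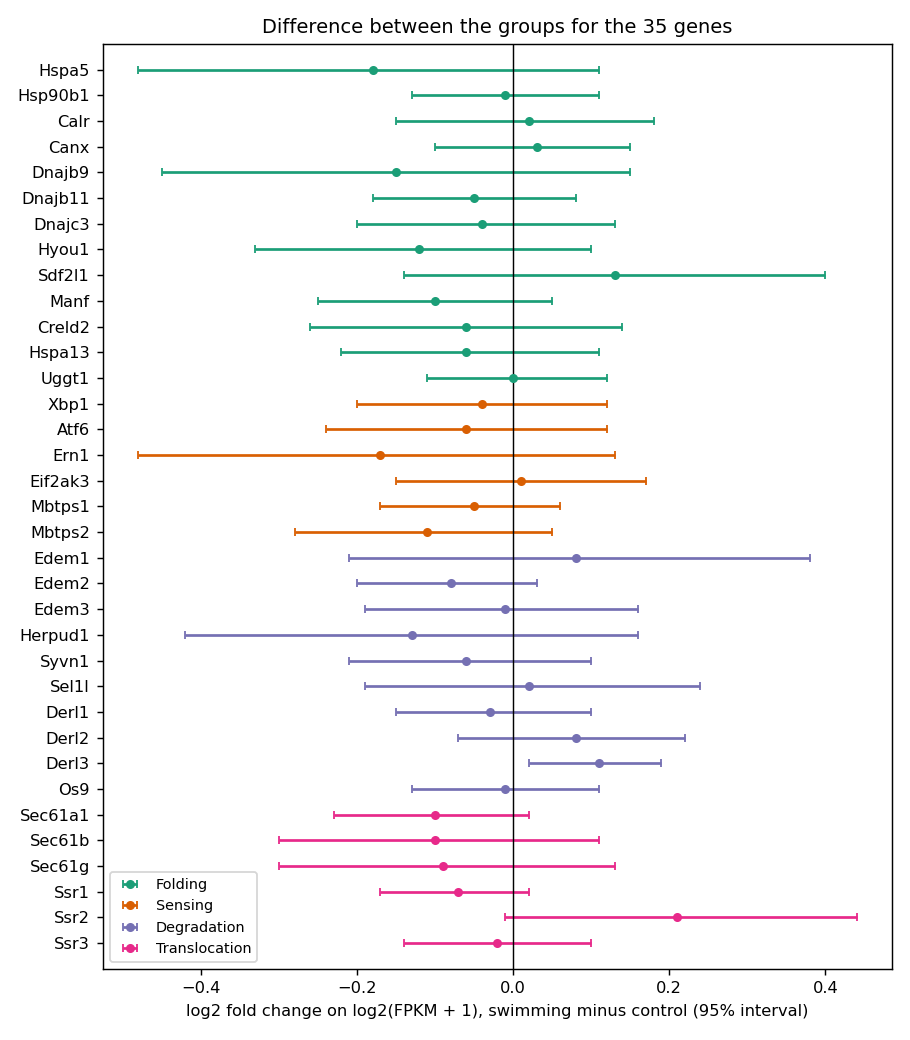
Points give the log2 fold change (swimming minus control, on log2(FPKM + 1)) of each of the 35 genes and bars its 95% interval from limma, colored by role. The largest decrease is that of Hspa5 at -0.18, the largest increase that of Ssr2 at 0.21, and only the interval of Derl3 (0.02 to 0.19) lies wholly on 1 side of 0.

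By role, the median log2 fold change was -0.05 for the folding genes, of which 9 of 13 had a lower mean of log2(FPKM + 1). For the sensors it was -0.06, and 5 of 6 were lower on that scale. It was -0.01 for the degradation genes with 6 of 10 lower, and -0.08 for the translocation genes with 5 of 6 lower. Single tumors moved these medians. For the folding genes the median ranged from -0.08 (without control 1) to 0.00 (without control 4), and for the translocation genes from -0.11 (without control 3) to -0.04 (without control 4 or swimming 3). For the sensors it ranged from -0.09 (without swimming 1) to -0.04 (without control 5 or swimming 5), and for the degradation genes from -0.02 to 0.00. Over the 35 genes, the lowest limit of a 95% interval on log2(FPKM + 1) was -0.48, for Hspa5 and Ern1, and the highest was 0.44, for Ssr2. This scale shrinks the change of Derl3, which is below 1 FPKM. A p above the threshold does not show that levels were equal.

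Among the folding genes, Hspa5 (ENSMUSG00000026864, chr2:34771970-34777547 on GRCm38) had the largest difference. Its FPKM values were 248, 257, 238, 300.4, 330.2 and 304 in control 1 to 6 and 328, 279, 199, 196, 207 and 288 in swimming 1 to 6. Swimming 3, 4 and 5 were below all 6 control tumors, whereas the other 3 lay within the control range. The log2 fold change was -0.18 with an SE of 0.14 and a limma adjusted p of 0.917, and the exact permutation test gave p = 0.288. With 1 tumor left out the log2 fold change ranged from -0.27 (without swimming 1) to -0.12 (without swimming 3 or 4). Hsp90b1 differed little, at 271 to 323 FPKM (median 289.6) in the control group and 275 to 320.3 FPKM (median 286) in the swimming group, with a log2 fold change of -0.01. Calr was at 287 to 347 FPKM (median 326) and 264 to 367 FPKM (median 334), a log2 fold change of 0.02. The highest and the lowest Calr values were both in the swimming group. Canx was at 70.8 to 85.9 FPKM (median 77.1) and 72.3 to 84.1 FPKM (median 78.5), and its log2 fold change was 0.03.

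The co-chaperones of Hspa5 had smaller differences. Dnajb9 (ERdj4), a J protein that helps to hand misfolded chains to degradation, was at 14.9 to 27.4 FPKM (median 20.3) in the control group and 13.6 to 22.2 FPKM (median 19.1) in the swimming group. Only swimming 5 lay below the control range, and the log2 fold change was -0.15 with a limma adjusted p of 0.934. With 1 tumor left out it ranged from -0.24 (without control 1) to -0.07 (without control 4 or swimming 5). Hyou1, a nucleotide exchange factor for Hspa5, had a log2 fold change of -0.12, and swimming 4 was at 16.4 FPKM beside a control range of 19.5 to 26.2 FPKM. For the J proteins Dnajb11 and Dnajc3 the log2 fold changes were -0.05 and -0.04. The secreted stress proteins Manf and Creld2 had log2 fold changes of -0.10 and -0.06. Sdf2l1, a partner of Dnajb11, was at 23.1 to 30.6 FPKM in the control group, and at 39.1 and 37.5 FPKM in swimming 5 and 6. The other 4 swimming tumors were at 22.2 to 28.4 FPKM, and its log2 fold change of 0.13 had a limma adjusted p of 0.934. The values for Hspa13 and for the folding sensor of glycoproteins Uggt1 were -0.06 and 0.00 on the log2 scale.

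**Figure D2:**
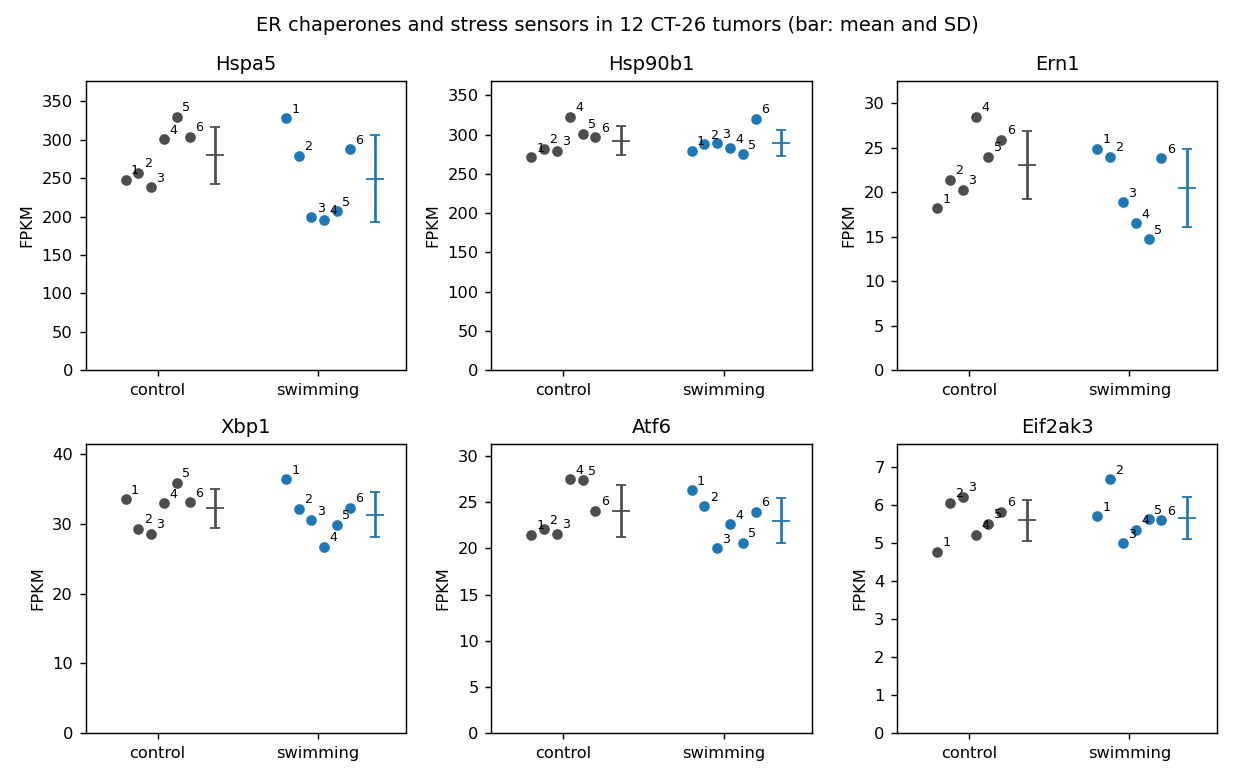
FPKM of Hspa5, Hsp90b1, Ern1, Xbp1, Atf6 and Eif2ak3 in each tumor (numbers are the replicate numbers) with the mean and SD of each group beside the points, on axes that start at 0. Swimming 3, 4 and 5 lie below the control range for Hspa5 (199, 196 and 207 against at least 238), while Hsp90b1 stays between 271 and 323 in all 12 tumors.

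Of the sensors, Ern1 (chr11:106394650-106487852 on GRCm38) was at 18.2 to 28.5 FPKM (median 22.7) in the control group and 14.7 to 24.9 FPKM (median 21.3) in the swimming group. Swimming 4 (16.5 FPKM) and swimming 5 (14.7 FPKM) were below the control range, and swimming 3 was at 18.9 FPKM. Its log2 fold change was -0.17 with an SE of 0.14, a limma adjusted p of 0.917 and an exact permutation p of 0.288. With 1 tumor left out it ranged from -0.24 (without control 1) to -0.09 (without swimming 5). Xbp1, the factor made from the spliced transcript, was at 28.6 to 35.9 FPKM (median 33.1) and 26.7 to 36.4 FPKM (median 31.4), a log2 fold change of -0.04. Atf6 was at 21.5 to 27.5 FPKM (median 23.1) and 20 to 26.3 FPKM (median 23.3), a log2 fold change of -0.06, with swimming 3 and 5 just below the control range. Eif2ak3 was at 4.78 to 6.23 FPKM (median 5.68) and 5.01 to 6.69 FPKM (median 5.62), a log2 fold change of 0.01. Mbtps1 was at 20.3 to 21.8 FPKM (median 20.6) and 17 to 21 FPKM (median 20.6), with swimming 6 alone below 20 FPKM. Mbtps2 was at 4.17 to 5.63 FPKM (median 5.06) and 4 to 4.76 FPKM (median 4.58), and its log2 fold change of -0.11 had a limma adjusted p of 0.909.

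Among the degradation genes, which recognise misfolded proteins and return them to the cytosol, Derl3 (ENSMUSG00000009092, chr10:75893413-75895941 on GRCm38) was the only gene of the 35 at an unadjusted p below 0.05. Derl3 is a derlin best known from secretory tissues, and it was the weakest of the 35 genes. It was at 0.0916, 0.122, 0.0741, 0.137, 0.0678 and 0.171 FPKM in control 1 to 6 and at 0.239, 0.189, 0.188, 0.21, 0.161 and 0.196 FPKM in swimming 1 to 6. All swimming tumors but swimming 5 were above every control tumor, and the groups overlapped only through control 6 and swimming 5. Control 1, 3 and 5 were below 0.1 FPKM. Derl3 therefore passed the filter of 0.1 FPKM in 6 tumors only through the swimming group, where it was higher. The difference of the means was 0.0867 FPKM, and the log2 fold change of 0.11 (SE 0.04) had an unadjusted limma p of 0.0154 (adjusted p = 0.889). The exact permutation test gave an unadjusted p = 0.00433, where 0.00216 is the smallest it can give. With a pseudocount of 0.1 or 0.01 in place of 1, the log2 fold change became 0.51 or 0.84, as these values lie far below 1 FPKM. The number of reads behind these values is unknown. The other derlins Derl1 (log2 fold change -0.03) and Derl2 (0.08) were at 44.3 to 56.1 FPKM and 5.3 to 7.46 FPKM over all tumors.

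None of the other 9 degradation genes was at an unadjusted p below 0.05. Herpud1, which gathers the degradation complex at the membrane, was at 31.3 to 42.7 FPKM (median 35.3) in the control group and 25.7 to 44.3 FPKM (median 32) in the swimming group. Swimming 4, 5 and 6 (25.7, 26.1 and 27.7 FPKM) were below the control range and swimming 2 was above it, and the log2 fold change of -0.13 had a limma adjusted p of 0.934. It ranged from -0.22 (without swimming 2) to -0.06 (without swimming 4). Syvn1, the ligase of the complex, was at 8.36 to 11 FPKM (median 9.61) and 7.63 to 10.1 FPKM (median 9.57), a log2 fold change of -0.06, and its adaptor Sel1l had 0.02. Edem2, a mannosidase-like protein that marks glycoproteins for degradation, was at 13.8 to 16.8 FPKM (median 14.8) and 13.1 to 15.1 FPKM (median 13.8), a log2 fold change of -0.08. Its relatives Edem1 and Edem3 had log2 fold changes of 0.08 and -0.01, and Edem1 was at 12.9 FPKM in control 5 beside 20.1 to 27.3 FPKM in the other 5 control tumors. Derl2 was at 5.3 to 6.98 FPKM (median 6.24) and 6.29 to 7.46 FPKM (median 6.34). The lectin Os9 was at 59.4 to 68.3 FPKM and 56.2 to 67.2 FPKM, a log2 fold change of -0.01.

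Of the translocation genes, Sec61a1, which forms the channel itself, was at 46.4 to 54.8 FPKM (median 50.5) in the control group and 43.3 to 51.6 FPKM (median 47.3) in the swimming group. Swimming 3 and 4 were below the control range, and the log2 fold change of -0.10 had a limma adjusted p of 0.896 and an exact permutation p of 0.106. The small subunits Sec61b and Sec61g had log2 fold changes of -0.10 and -0.09. Ssr1, Ssr2 and Ssr3 encode subunits of the translocon-associated protein complex, which sits beside the channel, and they did not share a direction. Ssr1 had a log2 fold change of -0.07 and an exact permutation p of 0.0693, and Ssr3 was at 123 to 142 FPKM (median 137) and 119 to 143 FPKM (median 131), a log2 fold change of -0.02. Ssr2 (ENSMUSG00000041355, chr3:88575876-88588419 on GRCm38) was at 75.1, 67.2, 68.2, 53.4, 73.8 and 51.8 FPKM in control 1 to 6 and at 67.7, 79, 65.9, 72.5, 76.2 and 89.4 FPKM in swimming 1 to 6. Control 4 and 6 were lowest and swimming 2, 5 and 6 were above all control tumors. The log2 fold change of 0.21 (SE 0.10) had an unadjusted limma p of 0.0597, an adjusted p of 0.889 and an exact permutation p of 0.0996. With 1 tumor left out, the unadjusted limma p of Ssr2 ranged from 0.0301 (without control 1) to 0.142 (without control 6). It was also below 0.05 without control 5 (0.0354), swimming 1 (0.0478) or swimming 3 (0.0397), and it was 0.137, 0.136 and 0.103 without control 4, swimming 6 and swimming 2. An exon of the gene Gm10704 overlaps Ssr2 on the opposite strand, and reads of the pair cannot be told apart because the use of strand in counting was not given in the sources used here.

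**Figure D3:**
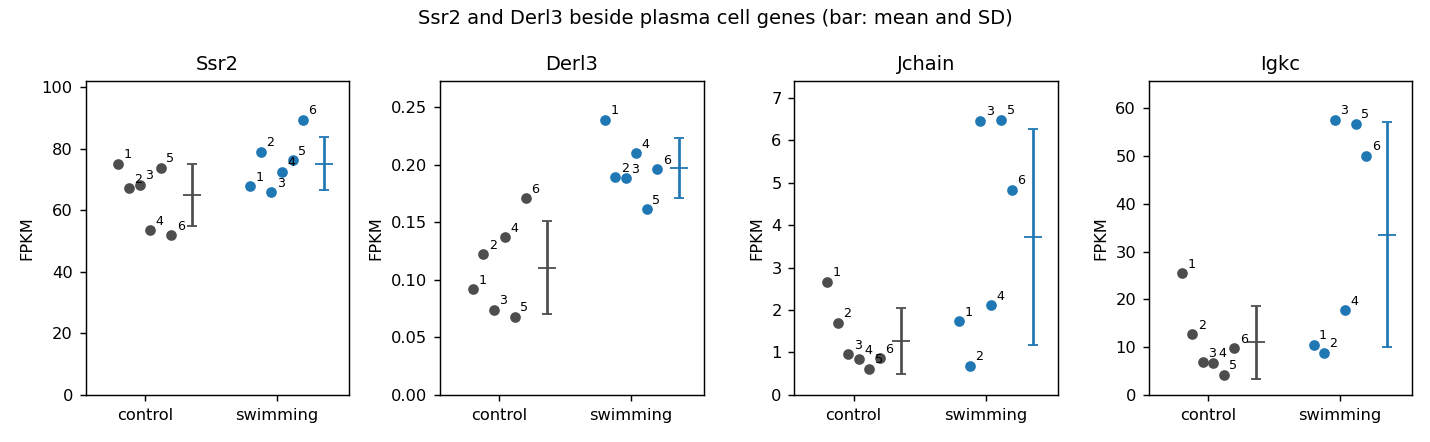
FPKM of Ssr2, Derl3 and the plasma cell genes Jchain and Igkc in each tumor (numbers are the replicate numbers) with the mean and SD of each group beside the points, on axes that start at 0. Derl3 is at 0.0678 to 0.171 in the control group and 0.161 to 0.239 in the swimming group, and swimming 3, 5 and 6 are highest for both plasma cell genes.

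Markers of antibody-producing cells, whose ER is large, also differed between tumors. Jchain, which joins IgA and IgM, was at 0.621 to 2.67 FPKM in the control group and 0.691 to 6.49 FPKM in the swimming group. Of the 17 plasma and B cell markers, 14 were tested, and 4 (Jchain, Igkc, Igha and Ighg2c) were higher in the swimming group at an unadjusted limma p below 0.05, each with an adjusted p of 0.889. The sum of all 17 markers was 29.1 to 75.4 FPKM in the control group and 38 to 125 FPKM in the swimming group. It was highest in swimming 5 (125), swimming 3 (117) and swimming 6 (102). The sum includes Sdc1, which was at 11.1 to 21.1 FPKM in the control group and 14.6 to 16.7 FPKM in the swimming group. Derl3 was highest in swimming 1 (0.239 FPKM), where that sum was 43.4 FPKM, and lowest of the swimming group in swimming 5 (0.161 FPKM). The number of reads behind these weak values is unknown, so the order of Derl3 within the group is uncertain. Whether Derl3 followed that sum from tumor to tumor was not tested. No marker of the list was at 0 in all tumors, and the part of these cells in the values of the 35 genes was not tested.

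The tumors differed in the 35 genes within both groups. Control 4 was the highest tumor for 14 of the 35 genes, and control 1 was the lowest for 6. In the swimming group, swimming 4 was the lowest of all 12 tumors for 11 genes and swimming 5 for 5. Swimming 3, 4 and 5 were below every control tumor for 8, 13 and 9 of the 35 genes. These 3 tumors were singled out after their values were seen, and this count was not made for the other swimming tumors. None of the counts above was made over all genes tested, so they cannot be set beside a general share. In swimming 3, 4 and 5 the fibroblast markers summed to 497, 378 and 816 FPKM. The control group was at 206 to 843 FPKM and the other swimming tumors at 245 to 305 FPKM. Skeletal muscle markers summed to 181, 67.3 and 272 FPKM in them, beside 3.33 to 192 FPKM in the control group and 2.63 to 27.3 FPKM in the other swimming tumors. The sums for T and NK cells were 57.1, 33 and 46.5 FPKM, beside 20.8 to 44.4 FPKM in the control group and 14.4, 36.6 and 46.4 FPKM in swimming 1, 2 and 6. The sums for endothelium (33.9, 35.6 and 44.6 FPKM) and for adipocytes (12.3, 12.4 and 28.4 FPKM) lay within the control ranges of 28.3 to 49.8 and 6.66 to 80 FPKM. The part of other cell types in the ER gene values of these tumors was not tested.

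To see which genes rose and fell together from tumor to tumor, each gene was correlated with Hspa5 across the 12 tumors on log2(FPKM + 1), with 100000 permutations per gene and adjustment over 19017 genes. At an unadjusted permutation p below 0.05, 14 of the other 34 genes (41.2%) correlated positively with Hspa5, against 5.44% of all genes. Negative correlation at that p was found for 1 of them, against 9.52% of all genes. At an adjusted p below 0.05 stood 1 of the 34 genes, Ern1, and 0.557% of all genes. The median Pearson's r was 0.48 for the 34 genes and -0.08 for all genes. All values of a tumor share 1 library and its scaling, so these correlations describe the 12 tumors.

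**Figure D4:**
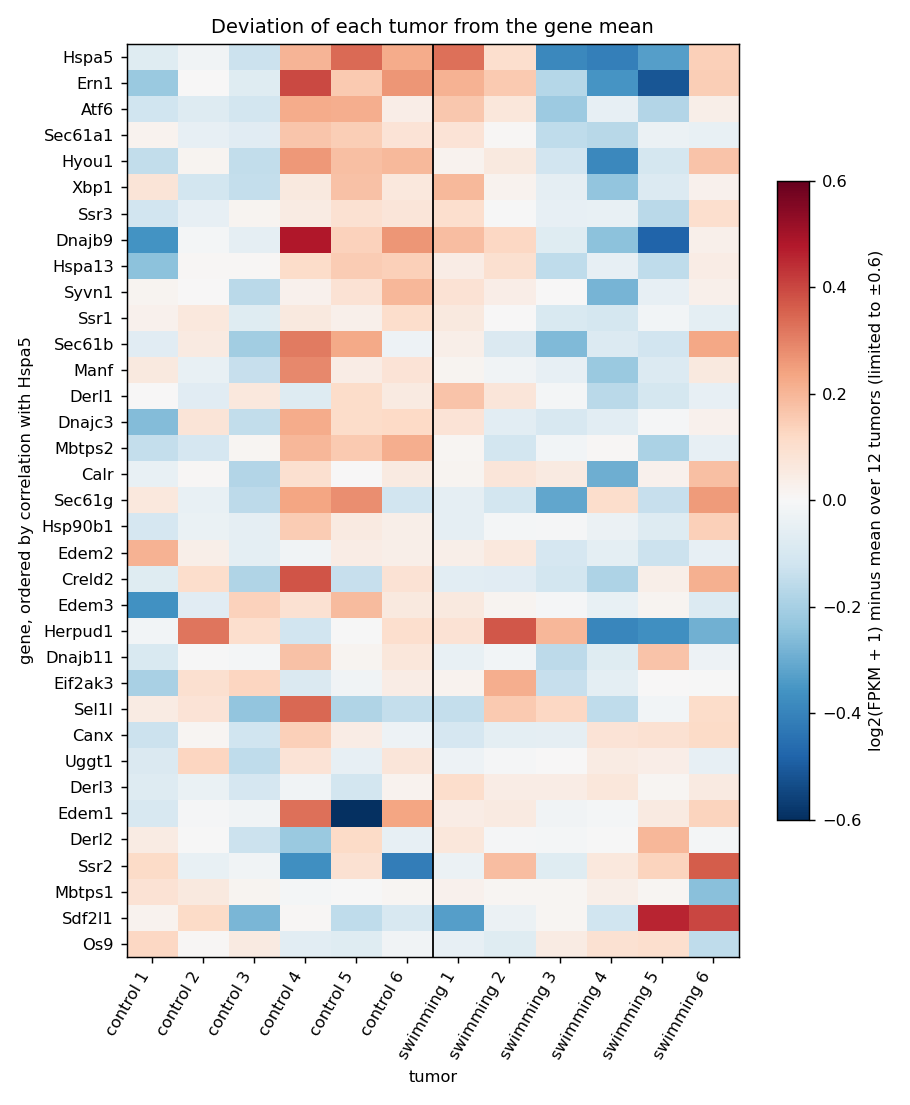
Each row is a gene and each column a tumor, with color showing the deviation of log2(FPKM + 1) from the mean of the gene over the 12 tumors and the colors limited to ±0.6. Genes are ordered by Pearson's r with Hspa5, from Ern1 (0.88) to Os9 (-0.76), and in the upper rows swimming 3, 4 and 5 are mostly below and control 4 to 6 mostly above the mean.

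Within the other 34 genes, the 3 sensors or factors Ern1, Atf6 and Xbp1 were among the 5 most like Hspa5. For Ern1, Pearson's r was 0.88 (permutation p = 0.00023, adjusted p = 0.0475) and Spearman's rho was 0.84 (permutation p = 0.00115, adjusted p = 0.099). Within the control group its r was 0.79 and within the swimming group 0.90, and without swimming 3 and 4, whose Hspa5 was farthest from the median, r was 0.88 (permutation p = 0.00076). For Atf6, r was 0.86 (permutation p = 0.00048, adjusted p = 0.0605) and rho 0.82 (permutation p = 0.00183, adjusted p = 0.116), with 0.91 and 0.90 within the control and swimming groups and 0.91 without those 2 tumors. For Xbp1, r was 0.83 (permutation p = 0.001, adjusted p = 0.0764) and rho 0.81 (permutation p = 0.00232, adjusted p = 0.122), with 0.77 and 0.88 within the groups and 0.80 without those 2 tumors. Eif2ak3, the third sensor, had an r of 0.25 (permutation p = 0.432) and a rho of 0.20 (permutation p = 0.544), and its r changed sign between the control group (-0.14) and the swimming group (0.57).

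By role, 3 of the 6 sensors correlated positively with Hspa5, and whether the shares differ between roles was not tested. Of the translocation genes 4 of 6 did, namely Sec61a1 (r 0.86, rho 0.85), Ssr3 (r 0.78, rho 0.79), Ssr1 (r 0.72, rho 0.73) and Sec61b (r 0.71, rho 0.72). Their r without swimming 3 and 4 was 0.73, 0.87, 0.48 and 0.64, so that of Ssr1 was no longer past the threshold (permutation p = 0.164). Of the 12 other folding genes 5 correlated positively: Hyou1 (r 0.83, rho 0.83), Dnajb9 (r 0.75, rho 0.85), Hspa13 (r 0.75, rho 0.83), Manf (r 0.67, rho 0.73) and Dnajc3 (r 0.59, rho 0.73). Of the 10 degradation genes 2 did, Syvn1 (r 0.73, rho 0.91) and Derl1 (r 0.65, rho 0.62). Without swimming 3 and 4 the r of Manf, Derl1 and Dnajc3 was 0.56, 0.59 and 0.58 with permutation p values of 0.0929, 0.0742 and 0.0756. The abundant chaperones had lower values, with an r of 0.50 for Calr, 0.48 for Hsp90b1 and -0.01 for Canx, permutation p values of 0.0925, 0.116 and 0.971, and a rho of 0.31, 0.47 and 0.07. Whether these r values differ from those of the genes above was not tested.

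**Figure D5:**
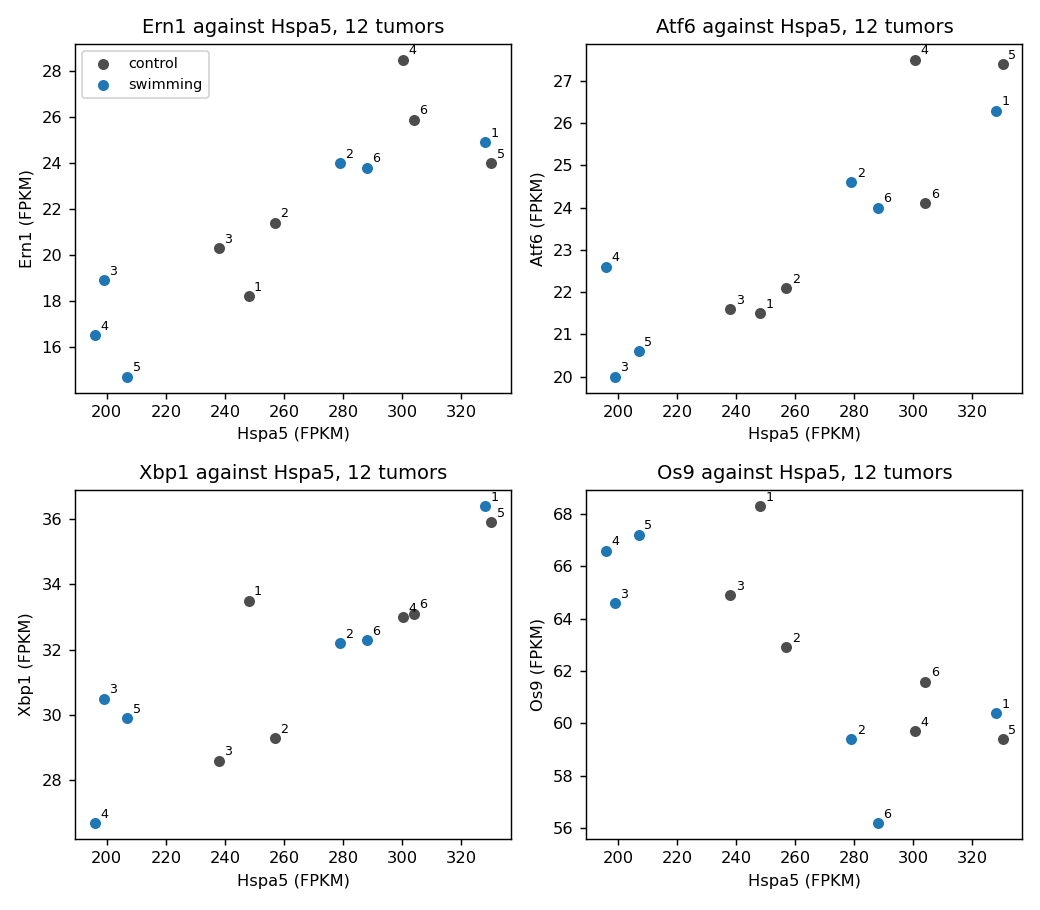
FPKM of Ern1, Atf6, Xbp1 and Os9 (vertical axes) against FPKM of Hspa5 (horizontal axes) in the 12 tumors, with replicate numbers beside the points and axes that do not start at 0. Ern1, Atf6 and Xbp1 rise with Hspa5 (r 0.88, 0.86 and 0.83 on the log2 scale) in the control and the swimming tumors, and Os9 falls (r -0.76).

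Os9, a lectin that delivers misfolded glycoproteins to the Syvn1 complex, ran the other way. It was lowest at 56.2 FPKM in swimming 6 and highest at 68.3 FPKM in control 1. Its r with Hspa5 was -0.76 (permutation p = 0.00492, adjusted p = 0.137) and its rho -0.71 (permutation p = 0.0127, adjusted p = 0.215). Within the control and swimming groups r was -0.86 and -0.84, and without swimming 3 and 4 it was -0.76 (permutation p = 0.0111). Sel1l and Herpud1, which belong to the same complex, had an r of 0.01 and 0.28 (permutation p = 0.966 and 0.371). By promoter element, the median r with Hspa5 was 0.37 for the 9 other genes with ERSE or ERSE-II and 0.39 for the 18 genes of the table without either, with 2 and 6 of them past an unadjusted permutation p of 0.05. The 7 genes without a promoter sequence were left out. All of them but Ssr2 (r -0.19) correlated positively with Hspa5 at that p, namely Atf6, Sec61a1, Hyou1, Hspa13, Manf and Derl1. Whether r differs with the element was not tested. Median log2 fold changes between the groups were -0.04 for the 10 genes with an element and -0.03 for the 18 without, and median levels were 43.3 and 21.1 FPKM.

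Other lists of the secretory and stress pathways were related to Hspa5 in the same way. Of all genes, 5.44% correlated positively and 9.52% negatively with Hspa5 at an unadjusted permutation p below 0.05. At an adjusted permutation p below 0.05 stood 0.557% of all genes. The list of 22 genes for the Eif2ak3 and Atf4 branch also holds Eif2ak1, Eif2ak2 and Eif2ak4, which are other kinases and not part of the Eif2ak3 branch. Of these 22 genes, 9 correlated positively at an unadjusted permutation p below 0.05 and 4 had an adjusted p below 0.05. These 4, named after their values were seen, were Sesn2 (r 0.92), which restrains mTOR signaling, the phosphatase subunit Ppp1r15a (r 0.86), the glutathione-degrading enzyme Chac1 (r 0.85) and, negatively, the RNA-sensing kinase Eif2ak2 (r -0.85). Their adjusted permutation p for rho did not pass 0.05. Of the other degradation genes 7 of 24 correlated positively, led by Erlin1 with an r of 0.92 (adjusted permutation p = 0.0272) and a rho of 0.99 (adjusted permutation p = 0.0475). Of the other translocation genes 8 of 26 did, of the glycosylation genes 6 of 24, of the other folding genes 4 of 29 (with 3 negative, and Wfs1 at an r of 0.88 with an adjusted permutation p of 0.0349), of the cytosolic and mitochondrial chaperones 3 of 16, of the ER to Golgi genes 2 of 16 and of the disulfide genes 1 of 20. Of the marker lists, 7 of the 14 plasma and B cell genes, 4 of 10 fibroblast genes and 3 of 8 T and NK cell genes correlated negatively with Hspa5, with a median r of -0.56, -0.57 and -0.56, while the 6 CT-26 and colon epithelium genes had a median r of 0.06. The 8 muscle genes had a median r of -0.53 with 0 past the threshold, and the part of these cell types in the correlations of the ER genes was not tested.

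Between the groups, 177 of the 178 genes of these 8 lists could be tested, and 4 were higher and 12 lower in the swimming group at an unadjusted limma p below 0.05, where 3.11% and 2.46% of all genes tested were higher and lower, with 0 at an adjusted p below 0.05. The count of 16 was 8 without control 4, control 5 or swimming 3, 10 without swimming 6 and 25 without control 3. Txndc5, a thioredoxin-domain protein that forms disulfide bonds in the ER, had the smallest p. It was at 48.1 to 83.5 FPKM in the control group and 37.9 to 43.9 FPKM in the swimming group, so that the groups did not overlap. Its mean was 74.5 ± 13.5 FPKM (SD, n = 6) and 41.6 ± 2.61 FPKM (SD, n = 6), and the log2 fold change of -0.81 (SE 0.12) had a limma unadjusted p of 1.08e-05 (adjusted p = 0.204, the smallest of all genes tested). All other genes named next had a limma adjusted p of 0.889.

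In the list for the Eif2ak3 and Atf4 branch, with those other kinases, 18 of 22 genes had a lower mean of log2(FPKM + 1). The median log2 fold change of that list was -0.12. The stress factors Nupr1 (-0.40, lower) and Atf3 (0.38, higher) were at an unadjusted limma p below 0.05. Among other folding genes, with a median of -0.01, the prolyl isomerase Fkbp11 (-0.40), the Atf6 relative Atf6b (-0.12) and the membrane-bound factor Creb3 (-0.11) were lower at that p. In glycosylation, with a median of -0.04, the mannosyltransferase Alg1 (-0.16) was lower and the glucosyltransferase Alg6 (0.15) higher. In other degradation, with a median of -0.03, Aup1 (-0.11) was lower. In other translocation, with a median of -0.03, Srp54b of the signal recognition particle (-0.20) and Get4 (-0.09) were lower. Srp54b has near-identical copies, so its value is uncertain. The coat protein Sec31a (-0.12) was lower in the ER to Golgi list, whose median was -0.07, and the disulfide list had a median of -0.01. Cytosolic and mitochondrial chaperones had a median of 0.06, with Hspa9 of mitochondria (-0.16) lower and the heat-inducible Hspa1a (0.67) and Hspa1b (0.76) higher at that p. Hspa1a and Hspa1b are near-identical and share reads, and Hspa1b was at 9.8 to 26.1 FPKM in the control group and 10.8 to 39.9 FPKM in the swimming group.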

How the data were processed

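RNA-Seq of 6 control and 6 swimming CT-26 tumors was analysed. Per the labels and methods, ribosomal RNA was depleted and libraries were made with the NEBNext Ultra kit. The submitters' processing notes name HISAT2 2.0.5, StringTie 1.3.3, limma and the builds hg38 and GRCm38, and the methods name hg38, whereas the gene identifiers are those of mouse in Ensembl. The authors deposited FPKM per gene, already divided by gene length and depth, and use of strand is not given in the sources used here. Exons of 9 of the 35 genes overlap another gene (Hsp90b1, Dnajb9, Manf, Eif2ak3, Mbtps2, Syvn1, Derl2, Sec61a1 and Ssr2). Absolute depth is unknown, so no counting error was given. By the estimated relative depth, values of weak genes are least precise in control 2.

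Groups and replicate numbers came from the labels. The methods describe a single flank graft per mouse, so tumors were taken to come from separate mice, and p-values measure the spread between these tumors. Symbols, coordinates and overlaps came from GENCODE M21 on GRCm38 by identifier (30578 of 30630 genes), and promoters from RefSeq on GRCm38.p6. The 19018 genes that reached 0.1 FPKM in 6 or more tumors were compared on log2(FPKM + 1) by lmFit and eBayes with a trend in limma 3.58.1 (R 4.3.3), without covariates and with Benjamini-Hochberg adjustment over all genes tested. The procedure was tested on simulated data. For single genes, an exact permutation test (two-sided, 924 divisions of the tumors into 6 and 6) was added. Correlations with Hspa5 used 100000 permutations. Python 3.11.15, numpy 2.4.6, pandas 2.3.3, scipy 1.17.1 and matplotlib 3.10.9 were used.

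The 35 genes, the lists of other pathway genes and the marker lists were chosen with earlier results of these data known. Genes described with values were those at an unadjusted p below 0.05, the 5 highest and 5 lowest by mean FPKM, Hspa5, Hsp90b1, Xbp1, Atf6, Ern1, Eif2ak3, Herpud1, Dnajb9, Sec61a1 and those with an outlying tumor, and of the other lists those at an unadjusted p below 0.05. Genes named for their correlation with Hspa5, and Ssr2, Ssr1, Hyou1, Sdf2l1, Edem1 and Os9, were described after their values were seen. Alternatives were other pseudocounts and filters, quantile normalization, trimmed mean scaling, sample weights, eBayes without trend, a replicate block and omission of each tumor in turn. Transcripts were not analysed here, nor was the marker Cdx1. Of the genes of the other lists at an unadjusted p below 0.05, 1 is counted but not reported here by name.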

Additional observations from a re-analysis of the deposited data

Results flagged for a closer look

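In 70 groups of 6 values (35 genes in the control and the swimming group), 4 single tumors stood apart from the other 5 of their group by Dixon's test. Chance flags about 1 in 20 groups, which is 3.5 of 70. Hsp90b1 was at 320.3 FPKM in swimming 6, and at 275 to 289 FPKM in the other swimming tumors. Mbtps1 was at 17 FPKM in the same tumor, and at 20.6 to 21 FPKM in the others. Edem2 was at 16.8 FPKM in control 1, beside 13.8 to 14.9 FPKM. Derl2 was at 7.46 FPKM in swimming 5, beside 6.29 to 6.72 FPKM.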

How the results depend on the processing

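Of 734 log2 fold changes of the 35 genes under 21 alternatives, 694 kept their direction and their side of an unadjusted p of 0.05. No gene of the 35 had an adjusted p below 0.05 under any of them. The count of 1 higher gene became 0 with a filter of 1 FPKM, which removes Derl3, and 2 with quantile normalization or sample weights, where Ssr2 (0.22 and 0.25) joined Derl3. With 1 tumor left out it ranged from 1 to 2, and it was 2 without control 1, control 5, swimming 1 or swimming 3. The count of lower genes ranged from 0 to 1, with Ssr1 (-0.09) without control 3 and Sec61a1 (-0.13) without swimming 1. The count of 16 genes of the other pathway lists ranged from 8 to 25. Over the 35 genes, the median log2 fold change ranged from -0.06 to -0.02 (without control 4). Signs changed for 13 genes, whose log2 fold changes lay between -0.06 and 0.08: Uggt1 was at 0.00 with quantile normalization and trimmed mean scaling and at -0.01 with sample weights, and Os9 at 0.00 with quantile normalization. With 1 tumor left out the ranges were -0.03 to 0.03 for Uggt1, -0.03 to 0.04 for Eif2ak3, -0.03 to 0.02 for Os9, -0.02 to 0.08 for Calr, -0.09 to 0.02 for Edem3, -0.02 to 0.10 for Sel1l, -0.04 to 0.02 for Hsp90b1, -0.09 to 0.00 for Dnajc3, -0.11 to 0.01 for Creld2, -0.05 to 0.16 for Edem1, -0.08 to 0.00 for Xbp1, -0.06 to 0.00 for Derl1 and -0.05 to 0.01 for Ssr3. The cause was not tested.

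The numbers 1 to 6 occur in both groups but belong to different mice. Deviations of same-numbered tumors correlated with a mean r of -0.12 (-0.32 to 0.00588), against 0.0246 for different numbers, so the numbers did not pair the tumors. With the replicate block 1 of the 35 genes was higher and 0 lower, and the count for the other lists was 10. The alternatives for the correlation with Hspa5 were added after the data were seen. The count of 14 was 15 with trimmed mean scaling, 14 with a pseudocount of 0.1 and 15 on deviations from the group means. It was 11 without swimming 3 and 4, and 12 to 15 with 1 tumor left out. The genes counted were not always the same. The 11 include Mbtps2 (permutation p = 0.0224) and the 15 on deviations include Calr (permutation p = 0.044), neither of which is among the 14. With 6 tumors in each group and no read numbers, differences within an interval that spans 0 could not be told from 0, and Derl3 at 0.154 FPKM is the least certain value.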
